A study of Saccharomyces cerevisiae with 11 samples.

Results

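Budding yeast cells lacking Paf1 were compared with wild type cells on 4 arrays, 2 of the paf1 deletion and 2 of wild type, out of 11 arrays in the series. The 4 arrays were chosen by their titles, and all 9275 probe sets other than array controls were taken. Wild type, paf1 deletion and ctr9 deletion cells had been grown to mid-log phase in YPD, a rich medium, with 4% glucose, and about 8 µg of total RNA per sample was made into biotinylated cRNA. The ctr9 deletion was measured on 1 array and is given beside the others. In the other 6 arrays a TetO2-Paf1 strain, in which doxycycline represses PAF1, was sampled without doxycycline (0 h) or after 2, 4, 5, 6 or 8 h with it, 1 array per time. Beyond the deleted gene or the TetO2-Paf1 construct, the labels gave no genotype, mating type or background of any strain. Losing Paf1 and any other difference between the strains therefore cannot be told apart. Nothing in the labels said that arrays of a group came from separate cultures, so p-values measure the spread between arrays, which may be technical, and 2 arrays per group limit the precision.

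Paf1 is a subunit of the Paf1 complex, with Ctr9, Cdc73, Rtf1 and Leo1. The complex travels with RNA polymerase II along genes, is needed for ubiquitination of histone H2B and for the histone methylation that follows it, and takes part in forming RNA 3' ends. In yeast, losing Paf1 or Ctr9 gives slow growth and many other defects, whereas cells without Leo1 or Rtf1 are healthier.

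Each probe set had a deposited score on each strain array, which ran from -10 to 10 on a scale that the sources used here do not name. A difference of scores is therefore not a fold change, and all differences below are paf1 deletion minus wild type in score units. The median score was 4.92 and 4.91 in wild type, 5.03 and 4.78 without Paf1 and 4.95 without Ctr9. Across probe sets the wild type arrays correlated at 0.933 and the paf1 deletion arrays at 0.928. The 28 control probe sets with no target in yeast scored between -2.08 and 1.93, and scores in that range are called background here.

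PAF1 scored 7.27 and 8.08 on the wild type arrays, 1.00 and 0.47 on the paf1 deletion arrays and 6.86 on the ctr9 deletion array. The paf1 deletion arrays were thus at background for the deleted gene and the others were not. RNA came from whole cultures, so for genes other than the deleted one, fewer cells with a transcript and less of it per cell cannot be told apart here. PAF1 fell by 6.94 (SE 0.587, with 2 arrays per group, limma adjusted p = 0.000487). RTF1 scored 4.23 and 5.93 in wild type and 7.22 and 5.60 without Paf1. CTR9 scored 1.84 and 4.36 in wild type and 3.81 and 4.90 without Paf1, and both genes overlapped between the groups. The differences of the remaining subunits did not pass, at 1.33 for RTF1, 1.25 for CTR9, 0.37 for CDC73 and 0.35 for LEO1, with limma adjusted p = 0.442, 0.603, 0.832 and 0.854. The genes on both sides of PAF1 did not pass either. DPB3, a DNA polymerase epsilon subunit gene, scored 6.49 and 6.06 against 5.50 and 5.21, and SAF1 scored 4.18 and 4.96 against 4.07 and 4.09.

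Of 6493 probe sets with a mean of at least 2.84 over the 5 strain arrays, 111 passed at a limma adjusted p under 0.05, which is 1.71% of those tested. Of these, 73 were higher in the paf1 deletion (1.12%) and 38 lower (0.585%), which together held probe sets of 58 higher and 27 lower genes. The median difference was 3.40 among the higher and -3.08 among the lower, against -0.06 over all tested probe sets. The higher and the lower probe sets started from different levels. In wild type, 33 of the 38 lower ones had a mean score of 6 or more, against 2 of the 73 higher ones. Among the higher ones, 36 had a wild type mean below the filter, so they could enter the test only through their level in a deletion strain, and 17 had both wild type scores at background. With the same filter set on the wild type arrays alone, an alternative chosen after seeing the data, 24 probe sets passed, 8 higher and 16 lower. Among the lower ones, 6 had both paf1 deletion scores at background. The number of calls rested on both wild type arrays, since none remained when either was left out. Without wild type 1 there were 706 probe sets at an unadjusted p under 0.05 and without wild type 2 there were 1029, against 963 with all arrays.

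**Figure D1:**
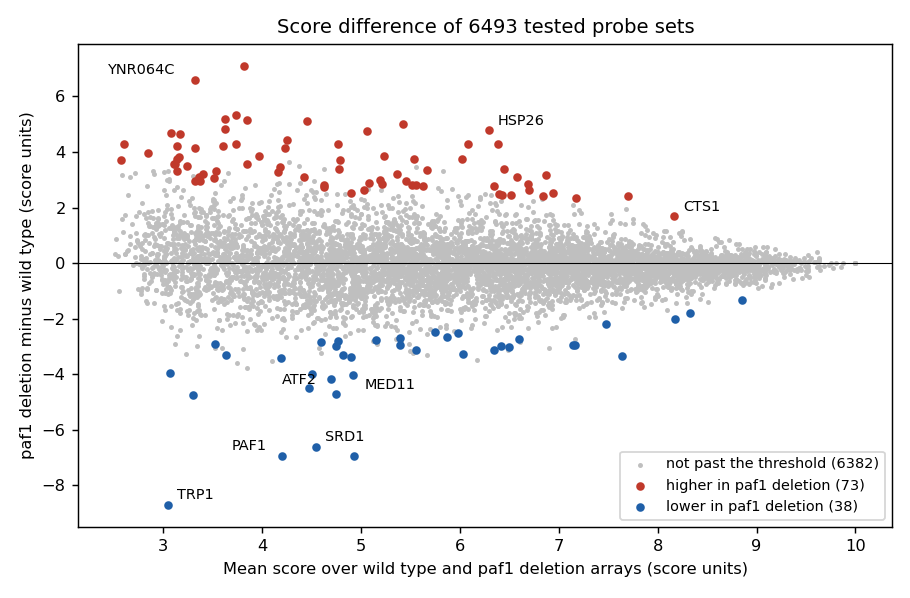
Difference in score (paf1 deletion minus wild type, vertical axis) against the mean score of the 4 arrays (horizontal axis) for 6493 tested probe sets. Red points are the 73 that passed as higher, blue points the 38 that passed as lower and grey points the rest. TRP1, PAF1 and SRD1 lie at the bottom, and no point with a mean score above 9 passed.

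The largest rise of any gene was not in the tested set. HIS3 encodes an enzyme of histidine synthesis, and it and TRP1, an enzyme gene of tryptophan synthesis, are widely used as selectable markers in yeast strains. The HIS3 probe set 8359_at scored -1.69 and -0.54 in wild type, 7.25 and 7.30 without Paf1 and 0.05 without Ctr9. The other HIS3 probe set, 8360_at, scored -0.69 and -1.82 in wild type, 5.95 and 6.06 without Paf1 and 1.22 without Ctr9. HIS3 was thus at background in wild type and in the ctr9 deletion and well above it on both paf1 deletion arrays. Because it was high on only 2 of 5 arrays, its mean lay below the filter. In the fit with no filter, which covered all 9275 probe sets, the differences of 8.39 (SE 0.716) and 7.26 (SE 0.726) passed, with limma adjusted p = 0.00165 and 0.00255. They were the only calls of that fit among probe sets that the filter had removed. The genes on both sides of HIS3 did not pass, with MRM1 at 4.56 and 5.45 against 5.59 and 4.41, and DED1 at 8.95 and 8.41 against 8.30 and 8.63.

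TRP1 showed the opposite order. It scored 7.56 and 7.24 in wild type and 7.28 without Ctr9, and was at background on the paf1 deletion arrays at -0.65 and -1.96. Its fall of 8.71 (SE 0.678, limma adjusted p = 0.000327) was the largest among tested probe sets. Neither neighbour of TRP1 changed so: SOK1, which did not pass, scored 6.64 and 7.10 against 7.17 and 7.59, and GAL3, below the filter, 2.77 and 1.99 against 2.32 and 1.89. Of the other auxotrophic marker genes none passed. URA3 (5724_at) was at background on all 5 arrays, with scores from -0.60 to 0.82, and an array control for URA3 scored 3.07 and 3.76 against 2.43 and 1.74. LEU2, LYS2, MET17, ADE1, ADE2, CAN1, HIS4 and URA1 differed by -0.22 to 0.72, with limma adjusted p = 0.506 for ADE2, the lowest of them.

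Other transcripts at wild type level in the ctr9 deletion but at background in the paf1 deletion lay at a repeated locus of chromosome XII and on chromosome III. Probe set 10185_s_at, for which the annotation lists the 4 ASP3 genes of cell wall L-asparaginase together, so that no single one can be named, scored 8.60 and 8.23 in wild type, 1.40 and 1.51 without Paf1 and 8.70 without Ctr9 (difference -6.96, SE 0.523, limma adjusted p = 0.000327). Probe set 9825_s_at, for which 4 short open reading frames interspersed with the ASP3 genes are listed together, scored 5.13 and 4.99 in wild type, 1.45 and 0.72 without Paf1 and 5.94 without Ctr9 (difference -3.98, SE 0.655, limma adjusted p = 0.0215). Another probe set of the same locus, 10186_s_at, was below the filter and scored 2.23 and 2.35 in wild type, -0.79 and 0.45 without Paf1 and 1.12 without Ctr9, so here the ctr9 deletion was at background too. All 3 were lower on both paf1 deletion arrays than on either wild type array.

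SRD1, a gene linked to the processing of precursor ribosomal RNA, scored 8.25 and 7.45 in wild type, 0.66 and 1.83 without Paf1 and 7.37 without Ctr9. It fell by 6.60 (SE 0.614, limma adjusted p = 0.000754) to background. CWH43, the gene before it, differed by -0.04, at 9.38 and 9.23 against 9.29 and 9.24. MAK32, the next protein-coding gene on the other side, scored 7.07 and 6.90 against 4.98 and 4.50, and its difference of -2.25 did not pass (limma adjusted p = 0.0674).

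**Figure D2:**
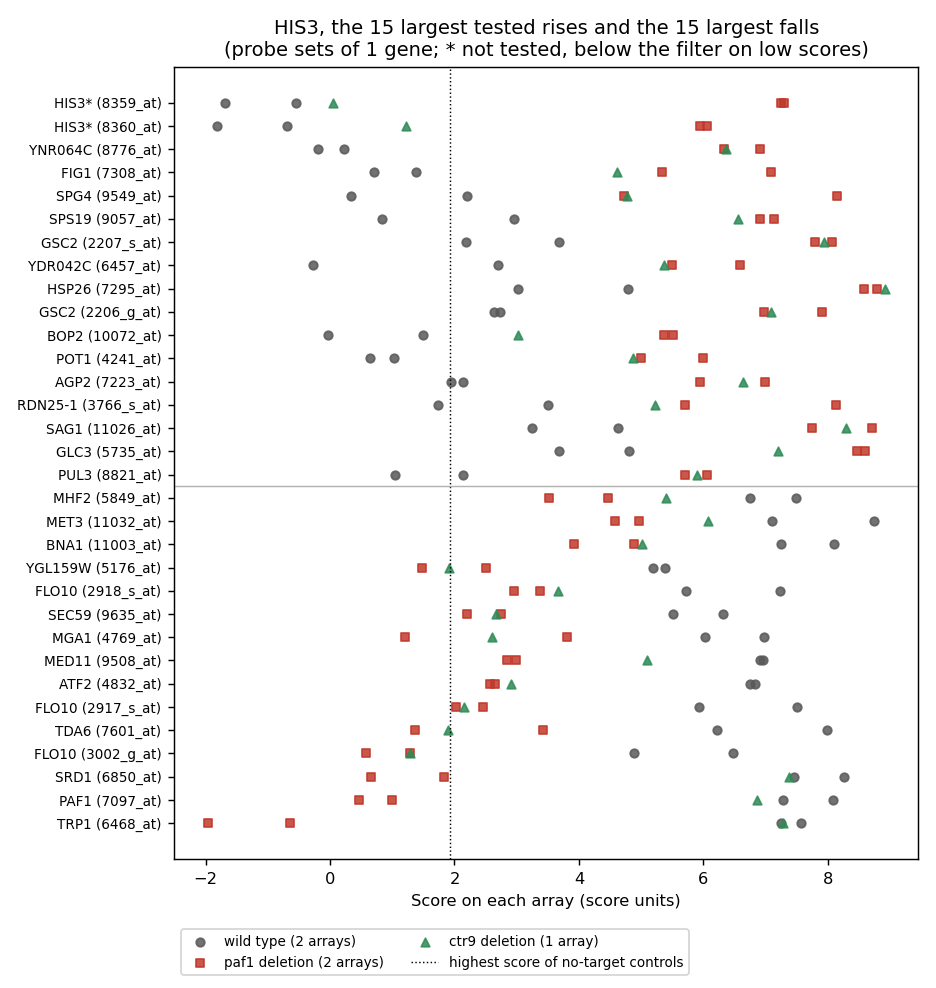
Score on each of the 5 strain arrays (horizontal axis, score units) for both HIS3 probe sets, the 15 largest tested rises and the 15 largest falls among probe sets of 1 gene. Circles are wild type, squares the paf1 deletion, triangles the ctr9 deletion, and the dotted line is the highest score of the no-target controls, 1.93. For HIS3, TRP1, PAF1 and SRD1 the ctr9 deletion lies with wild type or near it.

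Among tested probe sets of 1 gene, the largest rise was in YNR064C, which encodes a protein with epoxide hydrolase activity. It scored 0.23 and -0.19 in wild type, 6.33 and 6.91 without Paf1 and 6.36 without Ctr9, a rise of 6.60 (SE 0.627, limma adjusted p = 0.000754). PUL3, the second gene along from it and a gene of the cluster for use of the pigment pulcherrimin, scored 2.13 and 1.05 in wild type and 5.70 and 6.05 without Paf1 and also rose, by 4.29 (SE 0.637, limma adjusted p = 0.0135). PUL4, which lies between them and encodes a transcription factor of that cluster, was at background on all 4 arrays at 0.95 and 1.23 against 1.82 and 0.65. YNR064C and PUL3 had wild type means of 0.02 and 1.59, below the filter. They could thus enter the test only through their level in a deletion strain. With the filter on the wild type arrays alone neither passed.

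SPG4, a gene needed for survival in stationary phase, scored 0.33 and 2.20 in wild type and 8.15 and 4.72 without Paf1, and rose by 5.17 (SE 1.04, limma adjusted p = 0.0418), the largest SE among the calls. YDR042C, an uncharacterized gene beside the small nucleolar RNA gene SNR47, scored 2.70 and -0.27 in wild type, 6.58 and 5.50 without Paf1 and 5.36 without Ctr9. It rose by 4.83 (SE 0.918, limma adjusted p = 0.0389). SPG4 and YDR042C had wild type means of 1.265 and 1.215, below the filter. They could thus enter the test only through their level in a deletion strain. With the filter on the wild type arrays alone neither passed. SNR47 itself was below the filter at 1.45 and 2.37 against 3.04 and 3.03. The 3 other genes listed here for read-through from a small nucleolar RNA gene did not pass: TRS31 differed by 0.18 and CTO1 by -0.66, and LIN1 was below the filter.

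Genes of stored carbohydrate and of the stress response were among the named rises. For each gene list one probe set per gene was used, the one with the highest mean, and by that rule 79 of 4975 genes passed (1.59%), 1.13% as higher and 0.462% as lower, 45.5% of genes were higher in the paf1 deletion, and the median difference was -0.065. Of 17 genes of glycogen synthesis and breakdown, 14 were tested, 11 were higher, 2 passed as higher and none as lower, with a median of 1.10. GLC3, the glycogen branching enzyme, scored 4.80 and 3.68 in wild type and 8.47 and 8.59 without Paf1, a rise of 4.29 (SE 0.553, limma adjusted p = 0.00727). GPH1, glycogen phosphorylase, scored 2.05 and 4.55 against 6.87 and 7.45, a rise of 3.86 (SE 0.764, limma adjusted p = 0.0395). The groups did not overlap for either gene, and the spread between the wild type arrays of GPH1 was the wider. IGD1, an inhibitor of glycogen debranching that the list did not hold, rose by 2.52 from 3.80 and 3.48.

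All 7 trehalose genes were tested and 6 were higher, with a median of 1.29. TSL1, a regulatory subunit of trehalose synthase, was the only call, at 4.87 and 5.69 against 7.75 and 7.74. Its partner TPS1 already scored 8.80 and 8.56 in wild type and differed by 0.32. ATH1, acid trehalase, differed by 2.29 without passing (limma adjusted p = 0.0985).

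Of 56 general stress and antioxidant genes 47 were tested, 36 were higher, and 6 passed, all as higher, with a median of 0.73. With a filter at the 50th percentile that median was 0.315, and with the filter on the wild type arrays alone 0.453. The calls were GOR1, a glyoxylate reductase (rise of 3.72), HSP12, a membrane stress protein (3.73), GRE1, a hydrophilin (3.12), PAI3, an inhibitor of proteinase A (2.94), MSC1 (2.83) and TFS1, an inhibitor of carboxypeptidase Y (2.41). PAI3 had a wild type mean of 1.85, below the filter, so it could enter the test only through its level in a deletion strain. GOR1 scored 2.55 and 3.31 in wild type, 6.74 and 6.56 without Paf1 and 6.67 without Ctr9. The lowest difference was -0.95, and 33 of the 47 did not overlap between the groups, against 43.5% of all tested probe sets. Heat shock proteins and chaperones held 1 call among 28 tested of 31. It was HSP26, a small heat shock protein, at 3.02 and 4.78 in wild type, 8.79 and 8.58 without Paf1 and 8.91 without Ctr9, a rise of 4.79 (SE 0.619, limma adjusted p = 0.00727). The chaperone list as a whole had 18 members higher and a median of 0.50.

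The GABA shunt, which turns glutamate into succinate by way of gamma-aminobutyrate, had 4 of 5 genes tested, all 4 higher, with a median of 1.48. With no filter, or with the 4 arrays alone, UGA4 entered and the median was 0.65, and without wild type replicate 2 it was 0.80. GAD1, glutamate decarboxylase, scored 4.76 and 5.82 against 8.51 and 8.40 and rose by 3.17 (SE 0.518, limma adjusted p = 0.0215). UGA1, GABA transaminase, scored 6.46 and 5.53 against 8.30 and 8.40 and rose by 2.35 (SE 0.480, limma adjusted p = 0.0424). UGA3, the pathway's transcription activator, and UGA2, succinate semialdehyde dehydrogenase, differed by 0.60 and 0.36 and did not pass. Autophagy and vacuolar hydrolase genes had 26 of 30 tested, 19 higher and a median of 0.81, or 0.503 without paf1 deletion replicate 1. AMS1, vacuolar alpha-mannosidase, rose by 3.73 and ATG3, the conjugating enzyme for Atg8, by 3.23.

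**Figure D3:**
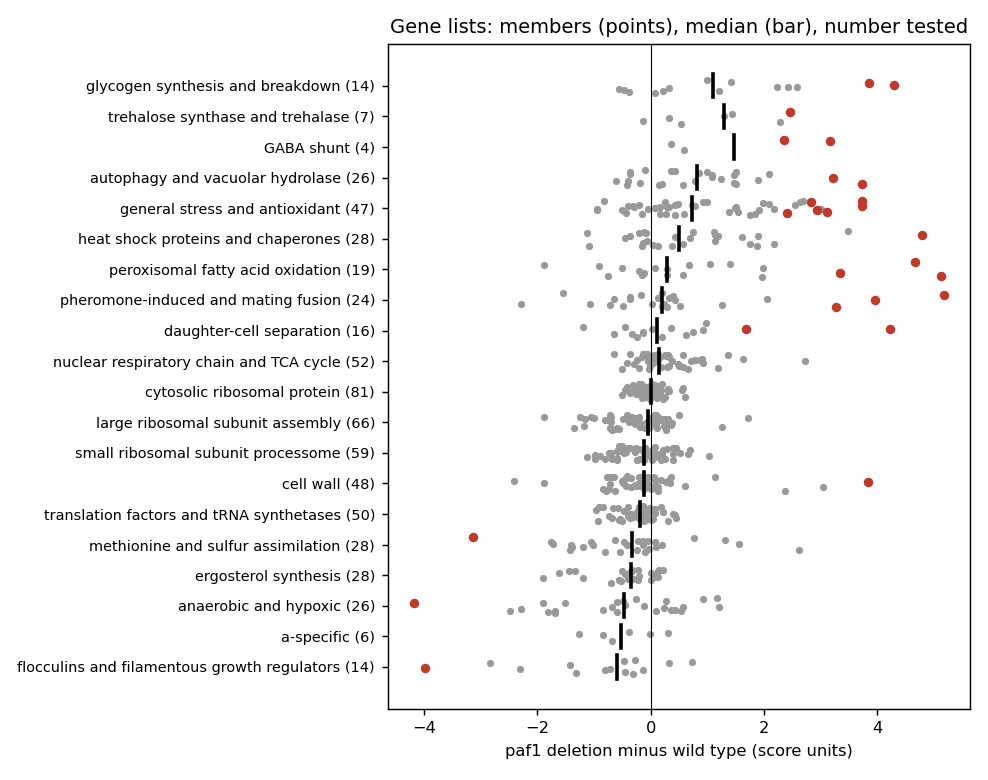
Difference in score (horizontal axis, paf1 deletion minus wild type) of the tested members of 20 gene lists, with 1 point per gene, calls in red and the list median as a black bar. Glycogen, trehalose, GABA shunt, autophagy and stress genes have medians from 0.73 to 1.48 (as low as 0.65 for the GABA shunt and 0.315 for stress genes under other filters), and cytosolic ribosomal protein genes lie close to 0.

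Genes that glucose normally holds down did not all move together. ADR1, a transcription factor that activates glucose-repressed genes, scored 3.77 and 4.23 in wild type, 7.42 and 7.26 without Paf1 and 7.38 without Ctr9, a rise of 3.34 (SE 0.522, limma adjusted p = 0.0183). Of 27 genes of peroxisomal fatty acid oxidation 19 were tested and 3 passed, all as higher, ADR1 among them. SPS19, a peroxisomal dienoyl-CoA reductase, scored 0.84 and 2.95 against 6.91 and 7.14 (rise of 5.13, SE 0.712, limma adjusted p = 0.0100), and POT1, the peroxisomal thiolase, 1.03 and 0.64 against 6.00 and 5.00 (rise of 4.67, SE 0.691, limma adjusted p = 0.0135). SPS19 and POT1 had wild type means of 1.895 and 0.835, below the filter. They could thus enter the test only through their level in a deletion strain, and neither passed with the filter on the wild type arrays alone. Over all 19 tested genes, the 3 calls included, 12 were higher, 7 were lower and the median was 0.29. That median became 0.91 without wild type replicate 1 and -0.16 with the filter at the 50th percentile. Nuclear respiratory chain and tricarboxylic acid cycle genes had no call among 52 tested and a median of 0.14, and CYB2, a lactate dehydrogenase, differed by 2.72 without passing (limma adjusted p = 0.0641). HXT4, a hexose transporter, scored 8.11 and 7.69 in wild type and 5.18 and 4.67 without Paf1 and fell by 2.98 (SE 0.515, limma adjusted p = 0.0264), the only call among 13 tested hexose transporters and sensors.

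Rises were also found in single genes of nitrogen and vitamin supply. GAP1, the general amino acid permease, scored 2.15 and 2.74 against 5.76 and 6.07 and rose by 3.47. AGP2, a plasma membrane regulator of carnitine and polyamine uptake, scored 1.95 and 2.13 against 5.95 and 6.99 and rose by 4.43 (SE 0.594, limma adjusted p = 0.00855). These were 2 calls among 18 permease genes tested, of which 9 were higher and 9 lower. GAP1 and AGP2 had wild type means of 2.445 and 2.04, below the filter. They could thus enter the test only through their level in a deletion strain. With the filter on the wild type arrays alone neither passed, and the list median was -0.11 instead of 0.02. Amino acid synthesis genes of the kind activated by Gcn4 had 62 tested, 23 higher, and 2 calls, both higher: ARG3, ornithine carbamoyltransferase (2.46), and SER3, the committing enzyme of serine synthesis (2.89). SNZ1, a pyridoxine synthesis gene, scored 5.18 and 4.88 against 8.51 and 7.73 and rose by 3.09 (SE 0.516, limma adjusted p = 0.0215). SNO1, which lies next to SNZ1 and works with it, differed by 2.90 and did not pass (limma adjusted p = 0.157). FIT2, a cell wall mannoprotein that retains siderophore iron, was the 1 call among 31 iron and metal genes, with a rise of 2.81.

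Mating genes differed one by one. Of 29 pheromone-induced and mating fusion genes 24 were tested, 15 were higher and 3 passed, all as higher. FIG1, a membrane protein of mating cells, scored 0.70 and 1.38 in wild type, 7.09 and 5.34 without Paf1 and 4.61 without Ctr9, a rise of 5.17 (SE 0.741, limma adjusted p = 0.0117). PRM3 and PRM1, which act in nuclear and in cell fusion, rose by 3.96 and 3.27. FIG1, PRM3 and PRM1 had wild type means of 1.04, 0.87 and 2.525, below the filter. They could thus enter the test only through their level in a deletion strain. The median of all 24 tested, these calls included, was 0.19. With the filter on the wild type arrays alone none of the 3 passed, and that median was 0.0775. SAG1, the alpha-agglutinin gene of alpha cells, scored 4.63 and 3.24 in wild type, 8.71 and 7.75 without Paf1 and 8.29 without Ctr9, a rise of 4.29 (SE 0.619, limma adjusted p = 0.0117). The other 3 alpha-specific genes were below the filter, with scores from 0.85 to 3.10 on the 5 arrays. The a-specific genes were clearly measured: STE2, the alpha-factor receptor, scored 8.28 and 8.15 in wild type and 7.58 and 7.18 without Paf1, and none of 6 tested passed. None of 11 haploid-specific genes passed, and 32 of 38 meiosis and sporulation genes were below the filter. Of the 6 tested, SPS19 was the only call, and its wild type mean of 1.895 was below the filter.

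Calls among cell wall and cell separation genes were all higher. PIR3, DSE2, the called FKS3 probe set and GSC2 2206_g_at had wild type means of 2.05, 1.495, 0.71 and 2.68, below the filter. These could thus enter the test only through their level in a deletion strain. GSC2, a stress-induced subunit of glucan synthase, had 7 tested probe sets, all higher, by 1.14 to 4.99, and 4 of them passed. The probe set with the largest difference, 2207_s_at, scored 2.18 and 3.68 in wild type, 8.06 and 7.79 without Paf1 and 7.93 without Ctr9 (SE 0.611, limma adjusted p = 0.00542). The probe set with the highest mean was the one at 1.14 and did not pass, so GSC2 is not among the calls counted for the wall list. FKS3, a related gene, had 3 tested probe sets, all higher, by 1.73 to 3.73, with 1 call. Of 48 wall genes tested, 19 were higher and PIR3, a wall glycoprotein, was the 1 call at 2.37 and 1.73 against 5.50 and 6.28. Daughter-cell separation genes had 2 calls among 16 tested and a median of 0.10 (9 higher). DSE2 rose by 4.22 from 1.17 and 1.82, and CTS1, the endochitinase that cuts the septum, scored 7.27 and 7.38 against 9.06 and 8.96. The rise of CTS1, 1.69 (SE 0.326, limma adjusted p = 0.0395), was the smallest among the higher calls.

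FLO10, a flocculin that makes cells adhere, had 6 tested probe sets, all lower, by 0.67 to 4.75, and 3 of them passed. Its probe set 3002_g_at scored 6.47 and 4.89 in wild type, 0.58 and 1.28 without Paf1 and 1.29 without Ctr9 (difference -4.75, SE 0.815, limma adjusted p = 0.0262). MGA1, a heat shock factor-like regulator of filamentous growth, scored 6.98 and 6.02 against 3.81 and 1.21 and fell by 3.99 (SE 0.846, limma adjusted p = 0.0490). It was the 1 call among 14 tested flocculins and filamentation regulators, of which 12 were lower with a median of -0.60. FLO10 is not among the calls of that list, because its probe set with the highest mean differed by -2.84 and did not pass (limma adjusted p = 0.0775). HKR1, a mucin-like osmosensor, and SPA2, a polarisome scaffold, each had 7 tested probe sets of which 1 passed, and the other probe sets did not all move the same way. For SPA2 the differences ran from -2.93 to 1.19, and for HKR1 from -2.94 to 0.23. SPA2 2943_at scored 6.52 in the ctr9 deletion, above wild type at 5.34 and 4.64. Across 245 genes with several tested probe sets, the range of the difference within a gene had a median of 0.78, and 132 genes kept 1 direction.

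Among the falls were single genes of metabolism. ATF2, an alcohol acetyltransferase that detoxifies steroids, scored 6.74 and 6.83 in wild type, 2.65 and 2.57 without Paf1 and 2.90 without Ctr9, a fall of 4.17 (SE 0.573, limma adjusted p = 0.00983). It was the 1 call among 26 tested anaerobic and hypoxic genes, 16 of which were lower with a median of -0.47. MET3, ATP sulfurylase, scored 8.74 and 7.10 against 4.58 and 4.97, the 1 call among 28 sulfur assimilation and methionine genes, of which 21 were lower with a median of -0.33. BNA1, an enzyme of NAD synthesis from tryptophan, fell by 3.26 (8.09 and 7.24 against 3.92 and 4.89). SEC59, dolichol kinase, fell by 3.44 (6.31 and 5.51 against 2.20 and 2.75), the 1 call among 44 glycosylation genes. Ergosterol synthesis genes had no call among 28, with 19 lower and a median of -0.34. TDA6, of unknown function, fell by 4.71 (SE 0.833, limma adjusted p = 0.0286) from 7.99 and 6.22.

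The lists of RNA polymerase II and Mediator subunits, of elongation factors and of RNA 3' end genes held 2 calls in all. MED11, an essential subunit of the Mediator head, scored 6.96 and 6.91 in wild type, 2.84 and 2.99 without Paf1 and 5.09 without Ctr9, a fall of 4.02 (SE 0.537, limma adjusted p = 0.00855). It was the 1 call among 32 RNA polymerase II and Mediator subunits, whose median was -0.12. SYC1, a subunit of the cleavage and polyadenylation machinery, scored 6.36 and 5.68 against 3.18 and 3.17, the 1 call among 41 genes of RNA 3' ends. None of 37 elongation and histone-modifying factors passed by limma, with a median of -0.14, while 9 of the 37 had an unadjusted p under 0.05, against 717 of all 4975 genes. RPC34, an RNA polymerase III subunit, fell by 2.67 (7.14 and 7.27 against 4.78 and 4.28), the 1 call among 40 genes of RNA polymerase I and III. CLN1, a G1 cyclin, scored 7.83 and 8.12 against 4.83 and 5.63 and fell by 2.75 (SE 0.530, limma adjusted p = 0.0395), the 1 call among 44 genes of the G1 to S transition and replication. HDA3, a histone deacetylase subunit, rose by 3.09 (1.98 and 1.66 against 4.48 and 5.34). Its wild type mean of 1.82 was below the filter, so it could enter the test only through its level in a deletion strain. It passed in 4 of 10 alternative settings of the processing.

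The gene lists of the protein synthesis machinery, which use only probe sets of 1 gene, gave no calls, where 1.59% of all genes passed. Of 138 listed cytosolic ribosomal protein genes, only 81 had such a probe set and were tested. Of these 81, 40 were higher and 40 lower, the median was 0.00, and the range was -0.50 to 0.61. Their median score was 8.34 and 7.40 in wild type and 7.89 and 7.84 without Paf1, so the wild type arrays lay farther apart than the groups did. The small-subunit processome (59 tested) and large-subunit assembly factors (66 tested) had medians of -0.12 and -0.06, and 50 translation factors and tRNA synthetases had a median of -0.20 with 9 higher. SDA1 and MAK21, ribosome assembly genes that the study followed, differed by 0.30 and -0.38 without passing (limma adjusted p = 0.846 and 0.849). Probe set 7854_i_at, for which RPS9A and RPS9B are listed together, so that neither can be named alone, did fall, at 8.85 and 8.39 against 6.08 and 5.25.

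Transfer RNA probe sets lay lower as a class without any call, and this class was picked out after its values were seen. Of 92 probe sets for tRNA genes, 77 were tested, 74 were lower in the paf1 deletion, and the median difference was -0.99. The class medians were 5.12 and 5.74 in wild type, 4.44 and 4.28 without Paf1 and 3.93 without Ctr9, and 55 of 77 did not overlap between the groups, against 43.5% of all tested probe sets. At an unadjusted p under 0.05 there were 17. Probe sets of related tRNA genes share sequence and are not independent of each other. The other 384 probe sets of the same family type had a median of -0.16. Probe sets for small nucleolar RNAs (45 tested, 32 lower) had a median of -0.53 and no call. Both probe sets of TLC1, the telomerase RNA, were lower, at 6.86 and 6.39 against 4.71 and 2.70 and at 5.13 and 6.20 against 4.01 and 3.43, and did not pass (limma adjusted p = 0.0775 and 0.169).

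**Figure D4:**
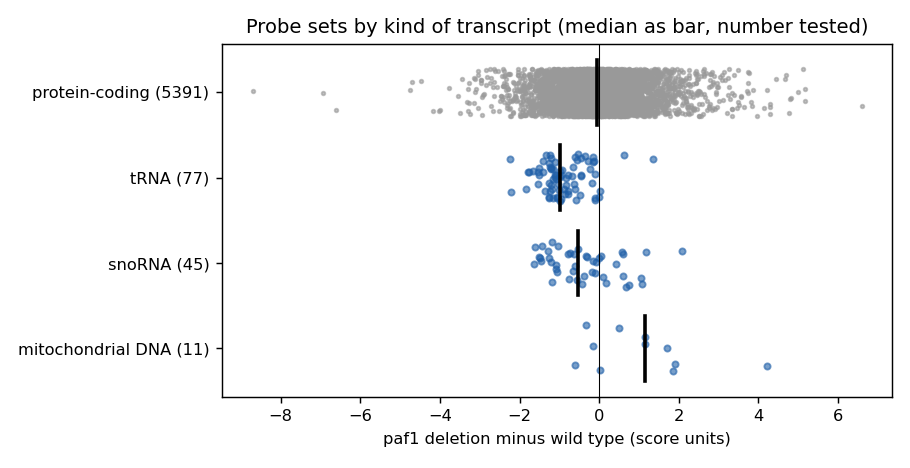
Difference in score (horizontal axis, paf1 deletion minus wild type) of tested probe sets by kind of transcript, 1 point per probe set, with the class median as a black bar. The 77 tRNA probe sets centre on -0.99 and the 11 probe sets of mitochondrial DNA on 1.14, which was 0.445 without wild type replicate 2.

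Mitochondrial DNA and repeated elements held rises. Of 28 probe sets of mitochondrial DNA 11 were tested, 8 were higher, and the median was 1.14. That median was 0.445 without wild type replicate 2 and 0.50 with the filter on the wild type arrays alone, and the 11 passed a filter that uses the deletion arrays. SCEI, the homing endonuclease encoded in a mitochondrial intron, was the 1 call, at 1.18 and 0.89 in wild type, 5.62 and 4.88 without Paf1 and 4.59 without Ctr9 (rise of 4.21, SE 0.681, limma adjusted p = 0.0215). Of 8 listed transcripts encoded in mitochondrial DNA 6 were tested, 3 were higher and 3 lower, with a median of -0.0725 and no call. The mitochondrial genes COB and COX1 of the respiratory chain differed by 1.91 and 0.50, and the lowest difference of the list was -0.615. For 8 probe sets the loci YIL082W-A and YGR109W-B, which belong to Ty3 retrotransposons, are listed together, so neither can be named alone. Of these, 7 were tested, all 7 were higher, and 4 passed, by 2.83 to 4.14. Among the 4, 3247_s_at and 3248_s_at had wild type means of 1.25 and 1.885, below the filter. The probe set 3247_s_at scored 0.74 and 1.76 in wild type, 6.42 and 4.36 without Paf1 and 4.87 without Ctr9. RDN25-1, a 25S ribosomal RNA gene, scored 3.51 and 1.73 against 8.13 and 5.71, and its rise of 4.30 (SE 0.851, limma adjusted p = 0.0395) was drawn from deletion arrays that lay well apart. COS12, of a subtelomeric family, rose by 3.80 from 2.08 and 0.44, the 1 call among 6 tested family members, and the other 5 differed by -1.40 to 0.23. The wild type means of SCEI, RDN25-1 and COS12, 1.035, 2.62 and 1.26, were below the filter.

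Among 685 tested probe sets for which no gene is listed, 13 passed. The largest rise of all tested probe sets was one of these, 3982_at, at 1.12 and -0.58 in wild type, 7.27 and 7.47 without Paf1 and 7.28 without Ctr9 (7.10, SE 0.674, limma adjusted p = 0.000754). In the TetO2-Paf1 strain its signal was already 9702 without doxycycline and lay between 9431 and 11417 at the later times. Probe set 9219_i_at scored 0.85 and 1.31 against 6.47 and 6.32, and 9220_r_at 0.15 and 0.76 against 5.01 and 4.49. Their identity is not given in the annotation used here. The wild type means of 3982_at, 9219_i_at and 9220_r_at, 0.27, 1.08 and 0.455, were below the filter. These probe sets could thus enter the test only through their level in a deletion strain. With the filter on the wild type arrays alone none of them passed. Calls were spread over the genome. Over the 16 nuclear chromosomes the median difference of tested probe sets ran from -0.165 on chromosome V to 0.05 on chromosome I, and the share called from 0 to 3.09%.

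The doxycycline time course shares no array with the strain comparison, and was used to look at the called probe sets again. The series held no array of another strain with doxycycline, and none of the TetO2-Paf1 strain without it at the later hours. Repression of PAF1, the drug itself and hours in culture thus cannot be told apart. Probe sets of the same gene, such as those of GSC2, were counted separately. Its values are linear signals, given as log2 changes from the 0 h array, which all later times share. PAF1 signal was 272 at 0 h, then 118.8, 139, 164.8, 184 and 165.8 at 2, 4, 5, 6 and 8 h. The arrays at 4 and 6 h stood apart: spike-in transcripts were 4.34-fold and 3.93-fold the 0 h signal there and 1.01- to 1.14-fold at the other times, and the actin 5' signal was 5.92% of the 3' signal at 4 h and 68.6% to 78.6% elsewhere. No probe set passed a test for a slope over time (0 of 6492 by limma, with 560 at an unadjusted p under 0.05).

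Of the 73 probe sets higher in the paf1 deletion, 57 had enough signal to be tested in the time course. Of these, 50 were above their 0 h signal at 2 h, 54 at 5 h and 50 at 8 h, that is 87.7%, 94.7% and 87.7%, where 53.9%, 48.9% and 56.8% of all tested probe sets were. The median log2 changes at these times were 0.66, 0.80 and 1.13, against 0.04, -0.01 and 0.08 for all. At 4 and 6 h, 46 and 51 were above (80.7% and 89.5%, against 54.8% and 56.7%). At all 5 times 42 were above 0 h (73.7%, against 25.9% of all tested), and at 2, 5 and 8 h alone, without the arrays that stood apart, 45 (78.9%, against 32.4%). A positive slope with an unadjusted p under 0.05 was found for 27 of 57, where 5.75% of all tested probe sets had one.

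Of the 38 lower probe sets, 31 were tested in the time course. The 31 include PAF1 itself, which doxycycline represses in this strain and which lay below its 0 h signal at every time. In time order, 22, 18, 26, 23 and 22 of them lay below their 0 h signal, or 71.0%, 58.1%, 83.9%, 74.2% and 71.0%, where 46.0%, 45.1%, 51.1%, 43.2% and 43.2% of all tested probe sets did. The median log2 changes were -0.26, -0.08, -0.63, -0.35 and -0.34. At all times 16 were below (51.6%, against 18.8% of all tested), and at 2, 5 and 8 h alone 18 (58.1%, against 26.3%). A negative slope at an unadjusted p under 0.05 was found for 3, where 2.88% of all tested probe sets had one.

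**Figure D5:**
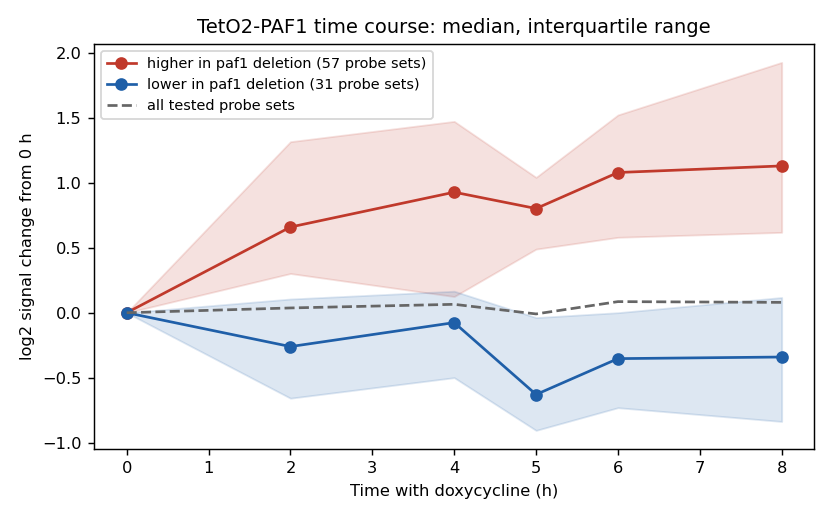
Median log2 signal change from 0 h (vertical axis) against hours with doxycycline (horizontal axis) in the TetO2-PAF1 strain, 1 array per time, for probe sets called higher (red, 57) and lower (blue, 31) in the paf1 deletion. Shading is the interquartile range over probe sets and the dashed line the median of all tested probe sets. At 8 h the medians are 1.13 and -0.34. The 31 include PAF1 itself, which doxycycline represses.

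Single genes differed in how they moved over time. GAD1 signal was 192.6 at 0 h and 1217, 1273, 592.6, 1476 and 1379 at the later times, all above it. SPS19 went from 90.8 to 175.5, 227.2, 218.7, 261.1 and 345.7, and POT1 from 46.7 to between 92.9 and 188.6. SAG1 was 422 at 0 h, 444.5 at 2 h and 690.3 to 1139 later. HSP26 was 291.8 at 0 h, 2057 at 2 h and 2922 at 4 h, but 311.2 at 5 h before 1263 and 1778, so its signal did not follow the hours. GSC2 2207_s_at, higher in the paf1 deletion, went from 58.1 to 95.6, 10.9, 109.2, 36.3 and 3.9 and ended below its first value. ATF2 was 223.5 at 0 h and 50.6 to 88.4 at all later times.

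Transcripts that were at background in 1 deletion strain and above it in the other were looked up as well. TRP1 signal was 177.7 at 0 h and between 162.2 and 202.7 later, and the ASP3 probe set 10185_s_at was 4184 at 0 h and between 4481 and 5893 later. SRD1 was 205.0 at 0 h and 126.1 to 180.6 later. HIS3 8359_at gave 1.0 at 0 h and 0.6 to 4.4 later, below the floor of 5.6 at every time. FIG1 and MED11, which were at background in neither deletion strain, were looked up too. FIG1, whose score rose in the paf1 deletion, had 38.8 at 0 h and 25.8 to 45.0 later. MED11, whose score fell, had 189 at 0 h and 103.8 to 177.9 later.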

How the data were processed

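Total RNA had been labelled and hybridized to Affymetrix yeast arrays, 1 per sample, per the labels' protocols. The authors deposited a score per probe set for the 5 strain arrays, bounded at -10 and 10 with no scale named, and a linear signal intensity for the 6 time course arrays. Not given in the sources used here were the software and its background and scaling steps. There were 9335 probe sets, 60 of them controls. GEO's platform annotation listed 1 gene for 6504, several for 328 and none for 2443; symbols were updated, and neighbours and chromosomes taken, through RefSeq's R64 table, and all 6504 matched. The array's own build was not named, so no coordinates are given.

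The design had assumed log2 signals; the strain values proved to be bounded scores and were analysed as deposited, without a log. Linear models were fitted with limma 3.58.1 in R 4.3.3 (lmFit, eBayes with a trend), with group as the only term over the 5 strain arrays, which left 2 residual degrees of freedom and 8.43 prior ones. Probe sets whose mean lay below the 30th percentile (2.84) were left out. The p-values were two-sided and adjusted by Benjamini-Hochberg over 6493 probe sets, with a threshold of 0.05. An exact permutation test of 2 against 2 arrays cannot go below p = 0.333 and was not used. Time course signals under 5.6, the 10th percentile, were raised to it before log2, and slopes per hour were fitted with limma over 6492 probe sets with a mean signal of at least 37.4. The fit was tested on simulated scores.

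The members and the 51 gene lists were chosen with earlier results of these data known, so lists have counts and medians and no test. Named were the Paf1 complex, the 15 largest rises and 15 largest falls of 1-gene calls, their other probe sets, up to 4 calls (or 2 members) per list, auxotrophic markers, mating-type genes, neighbours of the largest changes, SDA1 and MAK21, and 5 unnamed probe sets. HIS3 neighbours, the tRNA class and some smaller calls (BNA1, HDA3, IGD1, RPC34, CLN1 among them) were picked out after their values were seen. Alternatives changed the filter, normalization, eBayes settings, arrays in the fit, replicate block and left-out replicates. Same-numbered arrays did not deviate together (correlation 0.008).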

Additional observations from a re-analysis of the deposited data

Results flagged for a closer look

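One array control had a signal that the comparison did not use. The control probe set AFFX-25srRnae_at, 1 of several along the 25S ribosomal RNA, scored 2.08 and 0.85 on the wild type arrays, 6.60 and 4.12 without Paf1 (mean 5.36) and 4.27 without Ctr9, above the highest no-target control (1.93) on both paf1 deletion arrays. The 4 other 25S control probe sets scored from -0.95 to 3.81 on all 5 arrays, and RDN25-1, a 25S probe set of the main set, passed as higher.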

How the results depend on the processing

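The number of calls depended on the processing. Against 111 (73 higher, 38 lower), there were 41 (26 and 15) with no filter, 56 (34 and 22) with a filter at the 50th percentile, 42 (28 and 14) after quantile normalization, 237 (140 and 97) with arrays centred on their medians, 39 (29 and 10) without a trend in eBayes, 185 (112 and 73) with robust eBayes, 180 (111 and 69) without probe sets at a bound of the score, and 94 with the 4 arrays alone. A filter on the wild type arrays alone, chosen after seeing the data, gave 24 (8 and 16). Leaving out a replicate gave 0 to 185 calls, 0 to 126 higher and 0 to 99 lower; both counts of 0 came from leaving out a wild type array, where the lone other one was assumed to vary like the paf1 deletion arrays. The replicate number as a block gave 224 calls (124 and 100), and 109 of the 111 were among them; same-numbered arrays shared only a number (correlation of deviations 0.008), so this replicate block is given here only. Outside the left-out replicates, 8 of the 111 calls were made in all 10 alternatives, the ASP3 probe set 10185_s_at, GSC2 2207_s_at, GLC3, ADR1, SRD1, HSP26, GOR1 and MED11, and 102 in at least 5. TRP1, PAF1 and ATF2 were lost only under the filter at the 50th percentile, which left them untested. Of 759 values of 83 named probe sets under these alternatives, 595 stayed on their side of the threshold, 164 no longer passed and none changed sign. A probe set that an alternative left untested, as with TRP1 and PAF1 above, gave no value there and is not in these counts. The difference of MAK21 ran from -0.83 to 0.08 over the left-out replicates, changing sign without paf1 deletion replicate 2, and that of CTR9 was -0.005 without wild type replicate 1, and neither had passed.

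Some list medians moved by more than the spread between replicates. With the filter at the 50th percentile the medians were 0.315 for stress genes, 1.61 for glycogen, 0.28 for cell separation and 0.82 for mitochondrial DNA, and with the filter on wild type alone 0.453 for stress genes and 0.50 for mitochondrial DNA. The GABA shunt median was 0.65 with no filter, with the 4 arrays alone and with the replicate block, where its untested member UGA4 entered, and 1.63 with the mean over the probe sets of a gene. Respiratory genes had 0.250 after quantile normalization. Leaving out 1 replicate gave medians of -0.24 to 0.08 over all probe sets, 0.64 to 0.995 for stress genes, 0.813 to 1.14 for glycogen, 0.80 to 1.77 for the GABA shunt, 0.503 to 0.935 for autophagy, 0.265 to 0.91 for peroxisomal genes, 0.0125 to 0.395 for cell separation, -0.405 to 0.16 for the cell wall, -0.375 to 0.08 for the Gcn4 kind, -0.51 to -0.03 for ergosterol, 0.05 to 0.293 for respiration, -0.325 to 0.00 for the small-subunit processome, -0.408 to 0.12 for large-subunit assembly, -0.505 to 0.12 for translation factors, -0.305 to 0.23 for elongation factors, 0.445 to 1.38 for mitochondrial DNA, -0.355 to -0.04 on chromosome V and -0.165 to 0.305 on chromosome I. The causes were not tested. The time course slopes gave 0 calls by limma with no filter, with another floor and without the 4 h array. For probe sets at background in a group the score limits what the difference can show, and the score cannot exceed 10.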
